A study of Danio rerio with 8 samples.

Results

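The 8 RNA-seq libraries of this study fell into 2 sets of 4 that cross its morpholino groups. The second set held LOF-labelled libraries 1_1 and 1_2 with control libraries 2_1 and 2_2. The first set held LOF-labelled libraries 2_1 and 2_2 with control libraries 1_1 and 1_2. The sets were chosen by measured values, after the counts were seen: the scores on the first principal component of the log2 CPM (counts per 1e6 counts of a library), and each set difference is therefore given as a description with no p-value. No date, batch or hour in the labels used here goes with the sets.

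All 8 libraries came from GFP-positive cells sorted at 96 hours post fertilization from pools of 60 to 80 larvae of the Tg(fli1:EGFP)y1 zebrafish line, wild type otherwise per the labels. LOF-labelled larvae received a morpholino, an antisense oligomer, against an exon-intron junction of hpse2, which encodes heparanase 2 (Hpa2), and control larvae received a standard control morpholino at an equimolar amount. Each group had 2 biological replicates of 2 libraries each, so a set held 1 biological replicate of either group. Nothing in the labels tells if the paired libraries were made from separate pools, and p-values may therefore measure technical spread in part.

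The genes that separated the sets most included part of the circadian clock. In zebrafish, cells throughout the body sense light directly, and light switches on the period gene per2 and the cryptochromes cry1a and cry5, together with other photolyase-like and DNA repair genes. The core loop runs beside this input: Clock and Bmal proteins activate period, cryptochrome and Rev-erb genes, whose products repress the loop, and the PAR bZIP factors (tef, dbp, hlf) and Nfil3 act on its outputs. Heat shock proteins and immediate early genes, by contrast, mark acute responses of a cell to stress and stimulation.

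Library totals (in 1e6 counts) ran between 5.05 and 11.3, with 20106 to 21660 genes detected. Control 1_2 of the first set was the shallowest library and lay farthest out on the first component. The sorted cells carried endothelial markers, but cartilage and neural crest genes held a far larger share of the counts, which are not corrected for gene length. Their 37 list members, tested or not, summed to 37300 to 43940 CPM in the second set and 27080 to 47660 CPM in the first. The 35 endothelial list members summed to 1792 to 1948 and 1461 to 1517 CPM. The fli1 promoter of this line is known to be active in neural crest derivatives of the pharyngeal arches as well. In the second set the target gene hpse2 stood at 83.3 and 83.3 CPM under the LOF label against 32.5 and 33.1 CPM in controls. In the first set it stood at 47.4 and 49.0 CPM under the LOF label against 27.7 and 20.6 CPM in controls. Its count was higher under the LOF label in both sets (log2 difference 1.17, SE 0.10, edgeR adjusted p = 4.15e-07 with a set term and 0.13 without). A splice-blocking morpholino need not lower a gene count, and the count is no measure of how much function was lost.

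On the first principal component, with 40.3% of the variance, scores were 25.4 to 32.9 in the second set and -41.8 to -21.7 in the first. The next components took 17.5% and 11.2%. As a measure of distance, the chi-square of a pair of libraries divided by the number of genes was 2.53 to 5.77 within biological replicates. It was 6.82 to 11.4 between groups within a set and 13.7 to 24.4 between the sets within a group. The sets were chosen on the same values, so these distances describe the split and do not support it.

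**Figure D1:**
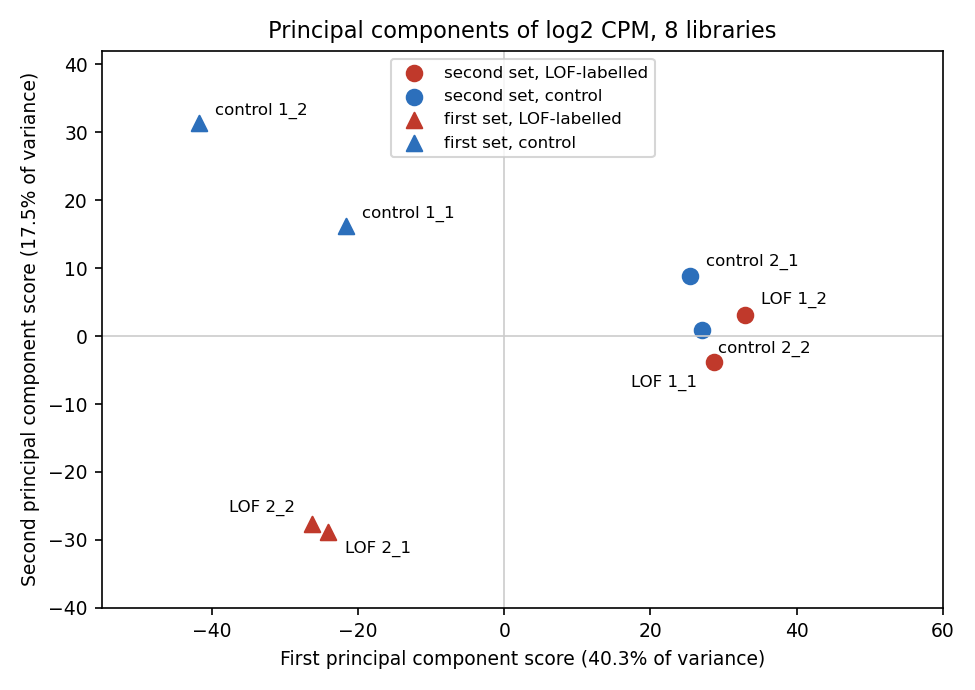
Scores of the 8 libraries on the first and second principal components of log2 CPM, which hold 40.3% and 17.5% of the variance; circles are the second set, triangles the first, red points LOF-labelled and blue points control libraries. The second set lies between 25.4 and 32.9 on the first component and the first set between -41.8 and -21.7.

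Of 15559 genes tested, 2035 (13.1%) had all 4 libraries of the second set above all 4 of the first, and 2207 (14.2%) had all 4 below. Each count of list members higher or lower given below is to be read against these shares. A difference of at least 2-fold as well was present in 176 genes higher in the second set (1.13%) and 338 lower (2.17%), 514 in all. With library totals in place of trimmed-mean scaling this split was 232 higher and 278 lower. By the same rule the LOF-labelled and control groups differed in 72 genes (16 higher, 56 lower under the LOF label), and biological replicates numbered 2 and 1 in 51 (12 higher, 39 lower in number 2). The sets were picked as the split on the first component of these counts, so a larger number for them follows from that choice. The median difference of all genes between the sets was 0.013 on the log2 scale. Just inside the 2-fold limit stood vaspa at -1.001 and prkd4 at -1.002, and just outside rpl29 at -0.9995 and rdh10a at 0.9968. In these bulk libraries, fewer cells of a type and less RNA per cell cannot be told apart.

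The light-induced genes of the clock were low in the second set and high in the first. The period gene per2 had 15.2 and 16.6 CPM in LOF-labelled and 13.2 and 13.3 CPM in control libraries of the second set, against 139 and 143 CPM in LOF-labelled and 116 and 197 CPM in control libraries of the first. It had the largest set difference of the genes with a mean log2 CPM of at least 3, at -3.35 on the log2 scale (14.6 ± 1.67 CPM in the second set against 149 ± 34.5 CPM in the first, mean ± SD, n = 4 libraries each). The repressor cryptochrome cry1a had 54.8 and 68.3 CPM in LOF-labelled and 43.2 and 41.8 CPM in control libraries of the second set, against 183 and 180.4 CPM in LOF-labelled and 155 and 151 CPM in control libraries of the first, a difference of -1.70. For cry5, which encodes a photolyase that repairs ultraviolet damage, the second set held 1.64 and 2.70 CPM under the LOF label and 3.88 and 2.50 CPM in controls. The first set held 15.8 and 17.1 CPM under the LOF label and 14.0 and 11.3 CPM in controls, a difference of -2.44. In each of these genes the highest library of the second set lay well below the lowest of the first.

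The rest of this group was mixed in size. The cryptochrome gene cry2 differed by -0.89 and cry-dash, a photolyase-like member, by -0.79, both without overlap between the sets. The cryptochrome gene cry4 was nearly equal in the sets (0.03), with 38.8 to 45.5 CPM in the second and 36.7 to 47.9 CPM in the first. The list therefore had 5 of 6 members lower and none higher, with a median of -1.29. A second list held light-induced genes of DNA repair together with LON-domain protein genes. In it the LON-domain gene lonrf1l followed per2. It had 21.0 and 32.3 CPM in LOF-labelled and 22.7 and 25.3 CPM in control libraries of the second set, and 109 and 120.3 CPM in LOF-labelled and 106 and 138 CPM in control libraries of the first (log2 difference -2.21). The damage recognition gene ddb2 (-0.69) and the other LON-domain gene, lonrf1 (-0.64), were also lower without overlap. Xpc, neil1 and polh, which act in excision repair and in copying past lesions, overlapped between the sets, at -0.18, 0.32 and -0.13.

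**Figure D2:**
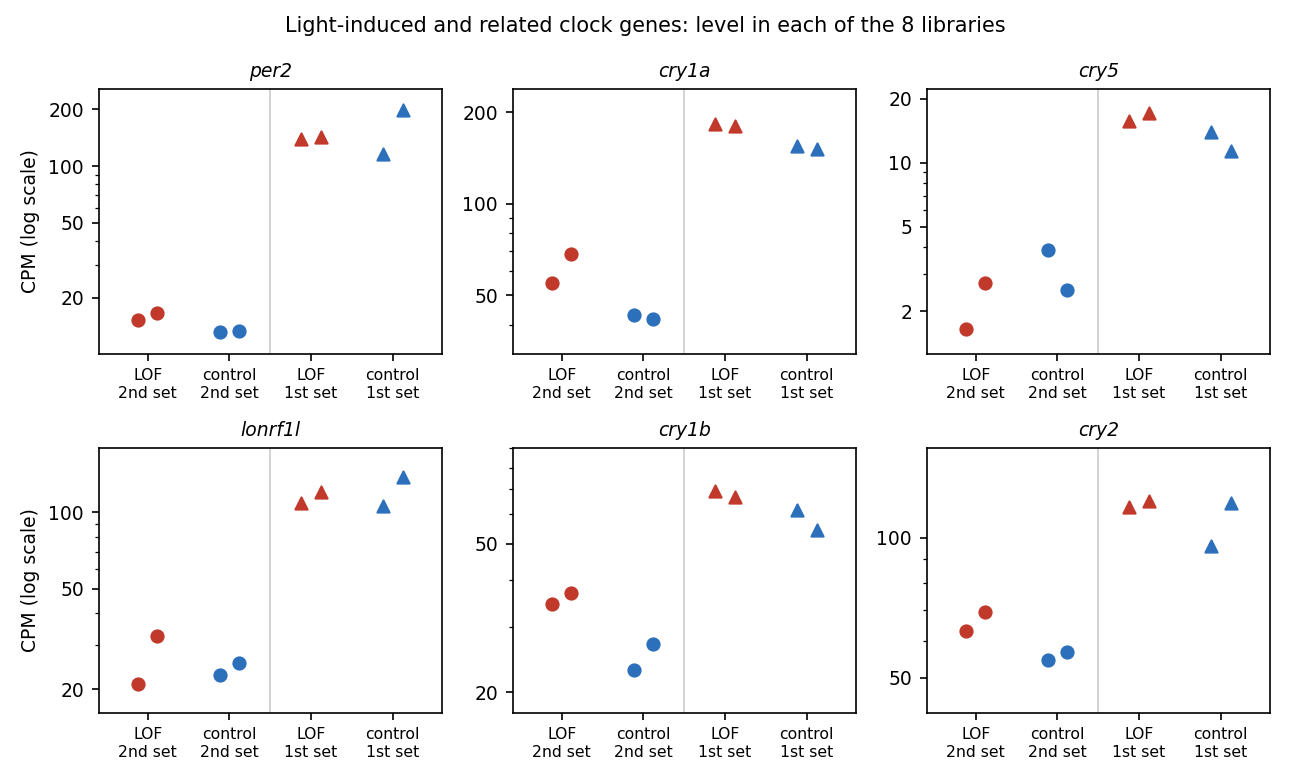
Level in CPM (log axis) of 6 clock or light-induced genes in each library; circles are the second set, triangles the first, red points LOF-labelled and blue points control libraries. For per2 the second set lies at 13.2 to 16.6 CPM and the first at 116 to 197 CPM, and in all 6 genes the sets do not overlap.

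The core of the clock differed less. Of 8 tested activators, 1, the Ror receptor gene rorab, was lower (-0.61) and none higher, with a median of -0.14. Among all genes 14.2% were lower and 13.1% higher, so 1 of 8 lower is near the share of all genes. The count lower was 2 without LOF-labelled 1_2 or LOF-labelled 2_1. With fewer libraries the sets stand apart more easily, here and in later counts of this kind. Clocka and clockb, the partners of Bmal, were at 0.17 and -0.14, and the Bmal genes arntl1a and arntl1b at 0.23 and -0.26. Of 14 repressors, 5 were lower and none higher (median -0.35). They were cry1b (-1.07), cry3b (-0.87), the transcriptional repressor bhlhe40 (-0.62), per1b (-0.45) and the kinase gene csnk1da (-0.24), and the count was 3 when library totals replaced the scaling. Of 14 output genes, 4 were lower and 1 higher (median -0.42). Nfil3-6 (-1.53) and nfil3-5 (-0.82), which encode repressors that bind the same DNA element as tef, tefb itself (-0.49) and the Rev-erb gene nr1d2b (-0.47) were lower, and nr1d4b, another Rev-erb relative, was higher (0.55).

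Some clock genes were called between the morpholino groups once the sets, chosen on these counts, were in the model. With a set term, 175 genes (1.12%) were called higher and 221 (1.42%) lower under the LOF label (edgeR quasi-likelihood test, Benjamini-Hochberg adjusted p under 0.05). Among the clock lists 11 members were called, all higher. Cartilage and neural crest genes had the most calls of any list, with 16 of 35 tested members lower and 1 higher under the LOF label. The Rev-erb gene nr1d1 had 488 and 531 CPM in LOF-labelled libraries and 333 and 360.3 CPM in controls of the second set, and 836 and 810.4 CPM in LOF-labelled libraries and 461 and 507 CPM in controls of the first. Both sets had their LOF-labelled libraries above their controls (0.66, SE 0.07, edgeR adjusted p = 4.44e-06), while the sets overlapped. Its relative nr1d2a rose by 0.56 (adjusted p = 1.36e-05 by edgeR), per1a by 0.49 (adjusted p = 0.000419) and per3 by 0.44 (adjusted p = 0.00207).

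The repressor gene bhlhe41 rose by 0.91 (SE 0.18, edgeR adjusted p = 0.00609), and dbpa, dbpb and tefb, of the PAR bZIP family, by 0.42, 0.40 and 0.30, with adjusted p of 0.0133 to 0.0267. Cry1a (0.38), cry1b (0.36) and bhlhe40 (0.30) were called higher under the LOF label too, and these 3 genes and tefb were also lower in the second set without overlap. For per2 and cry5, in contrast, the group differences were 0.02 (SE 0.17) and 0.05 (SE 0.22), with edgeR adjusted p of 0.975 and 0.953. In the glucocorticoid response list, 6 of 19 genes were called higher, among them the co-chaperone gene fkbp5 (0.66, edgeR adjusted p = 4.09e-06), pdk2b, a brake on pyruvate oxidation (0.62, adjusted p = 4.09e-06), and the transcription factor gene klf9 (0.70). Fkbp5 was also lower in the second set without overlap, at 325 and 363 CPM in LOF-labelled and 201 and 208 CPM in control libraries, against 567 and 566 CPM in LOF-labelled and 397 and 370.0 CPM in control libraries of the first set.

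Each set holds 1 biological replicate per group, and the spread in this test is that between paired libraries together with the group-by-set term. The sets were chosen on these counts, so a term for them lowers the spread left over, and the adjusted p-values may be too small. Without the set term 14 genes were called in all, and with counts summed per biological replicate 88. The count was 188 without LOF-labelled 2_2, 193 without LOF-labelled 2_1, 209 without LOF-labelled 1_2, 213 without control 2_1, 222 without control 1_2 and 615 without control 1_1. None of the 11 clock genes was called without the set term. Nor were fkbp5 and pdk2b, with edgeR adjusted p of 0.786 and 0.665. With summed counts cry1a, cry1b, bhlhe40, bhlhe41, tefb, dbpa and dbpb lost their call, with edgeR adjusted p of 0.072 to 0.33. Leaving out LOF-labelled 1_2, control 2_1 or control 2_2 also ended the call of cry1a, with edgeR adjusted p of 0.0707, 0.0601 and 0.0516. At least 3 single libraries did so for cry1b, bhlhe40, tefb, dbpa and dbpb, and none for nr1d1, nr1d2a, per1a, per3 or bhlhe41.

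**Figure D3:**
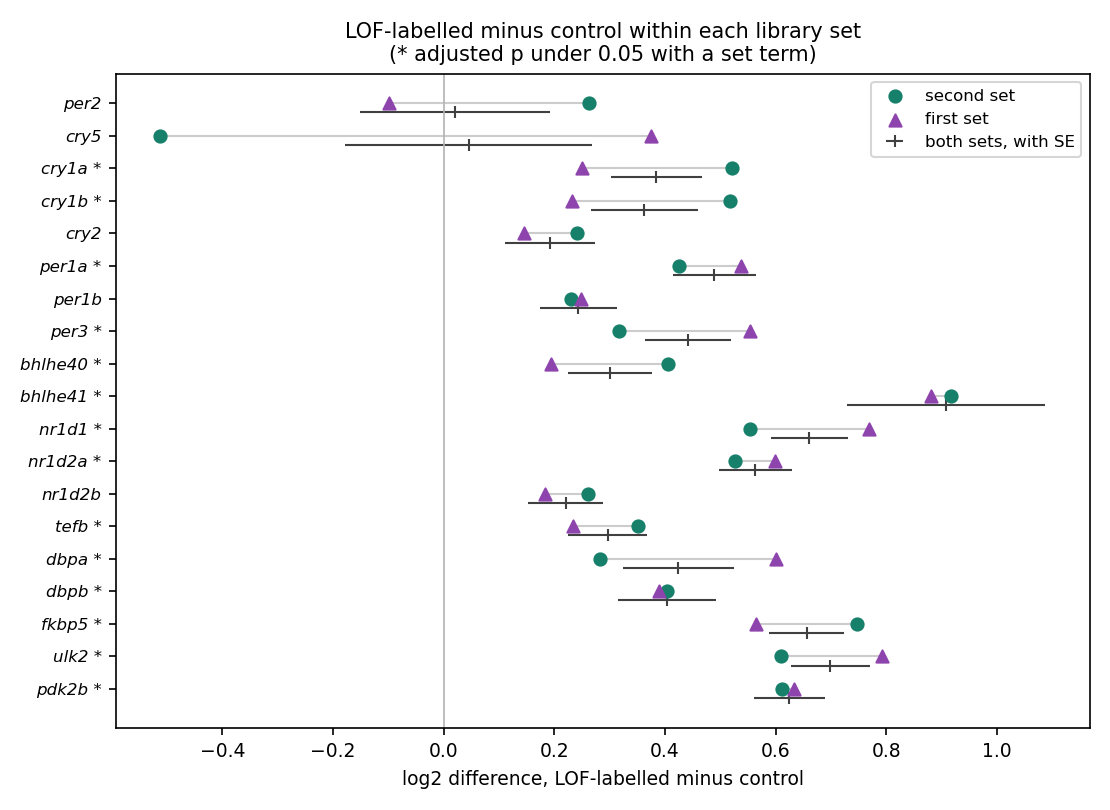
Log2 difference of LOF-labelled minus control libraries within the second set (circles) and the first set (triangles) for clock genes and 3 other genes, with the difference over both sets and its SE as a bar; an asterisk marks an adjusted p under 0.05 with a set term. The 2 sets lie on the same side of 0 in all genes shown except per2 and cry5.

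Genes of acute responses were lower in the second set. Of 38 immediate early genes, 20 were lower and 2 higher (median -0.36), and 6 of the lower ones passed the 2-fold limit. The nuclear receptor gene nr4a3 had 32.9 and 36.7 CPM in LOF-labelled and 27.1 and 29.9 CPM in control libraries of the second set, and 213 and 207 CPM in LOF-labelled and 104 and 212 CPM in control libraries of the first (-2.53). The AP-1 gene fosl1a differed by -2.41, the stress-responsive atf3 by -1.35 and egr4 by -1.36. The most abundant AP-1 gene of the list, fosab, had 2253 to 2623 CPM in the second set and 3898 to 4277 CPM in the first, a difference of -0.76. The 2 higher genes were klf2a (0.88), known as a flow-responsive factor of endothelium, and ccn2a (0.67), a matrix-associated growth factor gene.

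Inflammatory genes had a median of -1.07, with 11 of 19 lower and none higher. The neutrophil-attracting chemokine gene cxcl8a stood at 1.64 and 1.66 CPM in LOF-labelled and 0.88 and 0.34 CPM in control libraries of the second set, against 11.1 and 7.53 CPM in LOF-labelled and 9.45 and 13.2 CPM in control libraries of the first (-3.23). The macrophage enzyme gene acod1 (-2.42), tnfb, a tumour necrosis factor (-1.97), and csf3b, a granulocyte growth factor (-1.52), followed. The cytokine gene il1b had 28.2 to 31.0 CPM in the second set and 56.7 to 97.7 CPM in the first. Markers of macrophages moved with these genes. Of 10 tested macrophage genes 7 were lower and none higher (median -0.84), and the list summed to 625 to 766 CPM in the second set and 1107 to 1290 CPM in the first. The complement genes c1qa, c1qb and c1qc were near 0, with at most 3 counts in a library. The part of macrophages in the inflammatory difference was not tested. Interferon response genes were weakly covered, with 9 of 20 tested and 4 lower, among them isg15 (-2.07) at 0.83 to 1.5 CPM in the second set and 3.78 to 6.22 CPM in the first.

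Heat shock genes were lower in the second set, and in 6 of 24 members LOF minus control also differed between the sets. Of the 24 members, 13 were lower and 3 higher (median -0.57). The inducible chaperone gene hsp70.3 had 62.6 and 75.1 CPM in LOF-labelled libraries and 19.3 and 20.5 CPM in controls of the second set, and 192 and 187 CPM in LOF-labelled libraries and 251 and 352 CPM in controls of the first. LOF-labelled libraries were thus above the controls in the second set and below them in the first. The difference between the sets in LOF minus control, the interaction, was 2.46 (SE 0.21, edgeR adjusted p = 1.43e-05). The median interaction of the list was 0.139. The interaction was also called for hsp70.1, hsp70.2 and hsp70l (2.39 to 2.71), for their co-chaperone dnajb1b (1.66, SE 0.17, edgeR adjusted p = 2.84e-05) and for hsp90aa1.1 (2.50). The 4 hsp70 genes are near-identical copies, and reads could be split between them in either way, so they may not be separate measurements. Dnajb1b had 102 and 133 CPM in LOF-labelled and 54.6 and 64.2 CPM in control libraries of the second set, and 206 and 209 CPM in LOF-labelled and 304 and 365 CPM in control libraries of the first. The 3 members higher in the second set were hsph1 (0.59) and the collagen chaperones serpinh1a (0.43) and serpinh1b (0.26).

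The interaction was called in 83 genes higher (0.533%) and 39 lower (0.251%) of the 15559. It is the same contrast as replicate number 1 against 2, so a group effect that depends on the set and a difference between biological replicates cannot be told apart. The spread in its test is only that between paired libraries of a biological replicate. Its p-values therefore measure no spread between biological replicates. With library totals instead of scaling it was called in 66 genes higher and 57 lower. Without LOF-labelled 2_2, LOF-labelled 2_1 or control 2_2 the calls numbered 48, 58 and 70 in place of 122.

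Genes of other tissues were among the interactions. Rhodopsin (rho) of rod photoreceptors had 52.2 and 70.6 CPM in LOF-labelled libraries and 38.1 and 35.4 CPM in controls of the second set, and 206 and 200.5 CPM in LOF-labelled libraries and 450.1 and 333 CPM in controls of the first (interaction 1.70, SE 0.22, edgeR adjusted p = 0.00403, or 0.0562 without control 2_2). The ultraviolet opsin gene opn1sw1 had 30.1 and 18.8 CPM under the LOF label and 6.77 and 8.87 CPM in controls of the second set, but 1.86 and 0.54 CPM under the LOF label and 112 and 106 CPM in controls of the first (interaction 8.10, SE 0.44, edgeR adjusted p = 4.13e-06). Of 17 tested photoreceptor and lens genes, 6 were called for the interaction, all higher. Their median set difference was 0.08 among LOF-labelled and -1.82 among control libraries. By set alone 5 of the 17 were lower in the second set and 1 higher without overlap. A gene that is lower without overlap is lower in both groups by that rule. For rho, gnat1 and sagb the differences were -1.739, -1.464 and -1.085 among LOF-labelled and -3.39, -2.784 and -2.485 among control libraries. The whole list summed to 141 and 145 CPM in LOF-labelled libraries and 122 and 109 CPM in controls of the second set, and to 271 and 268 CPM in LOF-labelled libraries and 885 and 621 CPM in controls of the first. Several defining markers of this list, cryaa, gngt1 and opn1lw1, were at 0 counts in all 8 libraries. Whether the authors' counting or annotation gave these zeros was not tested, and they do not show that the genes were silent.

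Muscle genes varied by biological replicate and partly by library. The 26 list members found in the counts, 18 of them tested, were summed. The sum was 367 and 1920 CPM in LOF-labelled 1_1 and 1_2 and 397 and 203 CPM in controls 2_1 and 2_2 of the second set. In the first set it was 83.0 and 89.2 CPM under the LOF label and 859 and 1266 CPM in controls. No tested muscle gene separated the sets, although the set differences of all 18 were above 0 (median 0.46). Their median was 3.27 among LOF-labelled and -1.90 among control libraries. The interaction was called for the creatine kinase gene ckma (3.48, edgeR adjusted p = 0.00177) and for tnnt3a (4.23, adjusted p = 0.0111). The muscle markers, mylpfa, tnnc2 and pvalb2, had 0 counts in every library, with the same doubt about the counting.

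The cartilage and neural crest list had the largest number of interactions among the lists, with 10 of 35 members called, all higher. By share the photoreceptor and lens list, with 6 of 17, had more. Between the morpholino groups, with a set term, 16 of the 35 were called lower under the LOF label and 1 higher. Matrilin 1 (matn1) had 2847 and 2566 CPM in LOF-labelled and 4492 and 4737 CPM in control libraries of the second set, and 1806 and 1782 CPM in LOF-labelled and 5702 and 6347 CPM in control libraries of the first (interaction 0.98, SE 0.13, edgeR adjusted p = 0.000149). LOF-labelled libraries lay below the controls in both sets, with the wider gap in the first. The type IX and XI collagen genes col9a1a, col9a2, col9a3, col11a1a and col11a2 had interactions of 0.695 to 0.764. By set alone 10 cartilage and neural crest members were higher in the second set and none lower (median 0.29), among them sox9b (0.86), a cartilage transcription factor, col9a1b (1.06) and the arch patterning factors dlx3b (0.70) and barx1 (0.56). The median set difference of the list was 0.591 among LOF-labelled but 0.0844 among control libraries. In LOF-labelled libraries the list summed to 37300 and 38320 CPM in the second set and 27080 and 28060 CPM in the first. In controls the sums were 41070 and 43940 CPM in the second set and 46410 and 47660 CPM in the first.

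**Figure D4:**
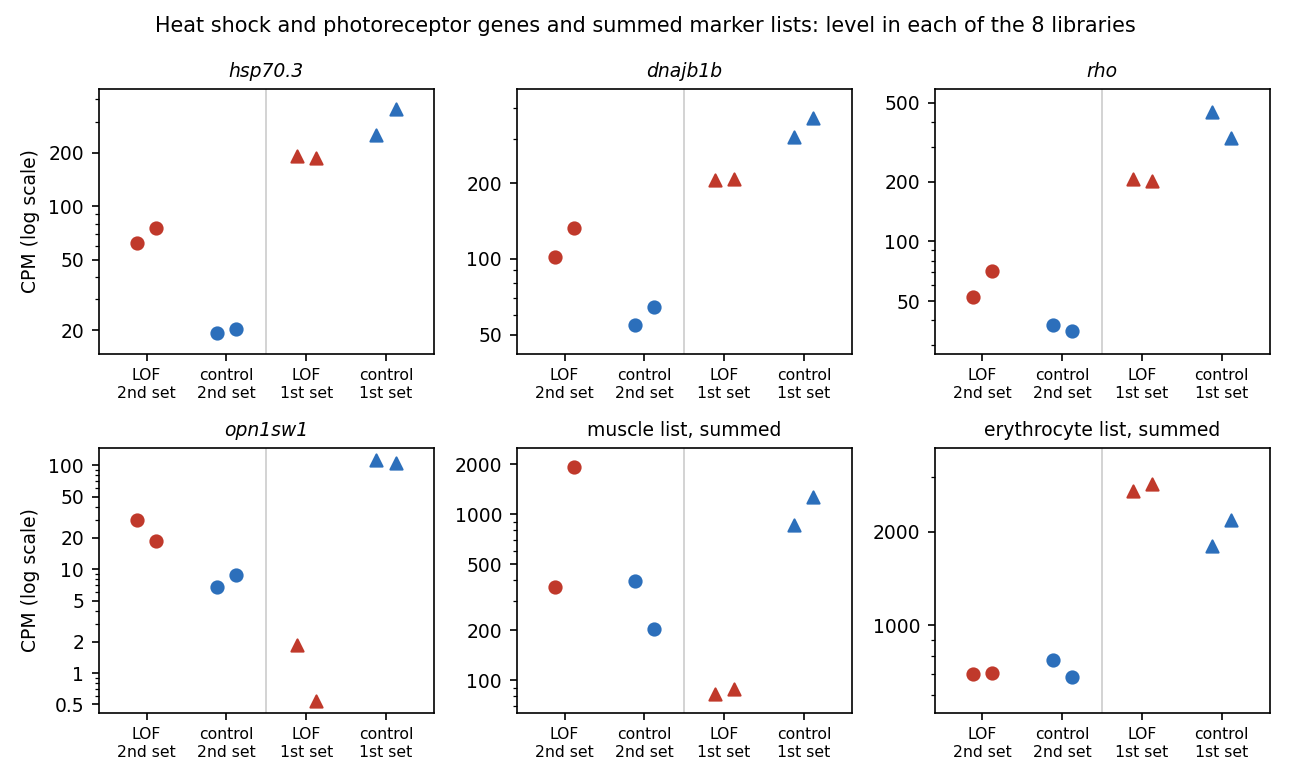
Level in CPM (log axis) in each library of 2 heat shock genes, 2 photoreceptor genes and the summed muscle and erythrocyte lists; circles are the second set, triangles the first, red points LOF-labelled and blue points control libraries. For hsp70.3 and rho, LOF-labelled libraries lie above the controls in the second set and below them in the first. The erythrocyte sum is 682 to 775 CPM in the second set. In the first set it is 2701 and 2846 CPM in LOF-labelled and 1793 and 2172 CPM in control libraries.

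Genes of endothelium were higher in the second set. Of 34 tested endothelial markers 26 were higher and 2 lower (median 0.69), and 7 were at least 2-fold higher. The adhesion receptor gene pecam1 had 25.3 and 31.7 CPM in LOF-labelled and 29.2 and 34.6 CPM in control libraries of the second set, and 8.88 and 9.01 CPM in LOF-labelled and 11.7 and 9.24 CPM in control libraries of the first (1.63). The VEGF receptor gene kdrl had 67.3 to 91.9 CPM in the second set and 31.3 to 44.7 CPM in the first (0.94). Cdh5, the cadherin of endothelial junctions, had 42.9 to 53.1 CPM in the second set and 25.6 to 26.7 CPM in the first (0.84). The diaphragm proteins of fenestrae and caveolae, plvapa and plvapb, were at 1.79 and 1.69 with fewer than 10 CPM in each library, and the scavenger receptor gene stab2 at 1.41. The gene behind the reporter, fli1a, differed by 0.26, with 516 to 528 CPM in the second set and 425 to 444 CPM in the first. The 2 lower members were tal1 (-0.68), a factor shared with blood precursors, and fli1b (-0.52). Of the other vessel and connective tissue lists, 8 of 13 mural genes (median 0.60) and 12 of 26 fibroblast genes (median 0.26) were higher and none lower. The smooth muscle actin gene acta2 was at 0.99, tagln at 0.78, twist2 at 0.67 and the matrix gene ogna at 0.62.

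Erythrocyte genes were the lowest list in the second set. Of 16 tested members, 12 were lower and none higher, with a median of -1.62, and 11 were at least 2-fold lower. The median set difference was -2.1 among LOF-labelled and -1.29 among control libraries. The interaction was called lower in 3 of the 16, against 0.251% of all genes, and its median was -0.608. In the first set the list summed to 2701 and 2846 CPM in LOF-labelled libraries and 1793 and 2172 CPM in controls. The embryonic globin hbbe1.1 had 44.4 and 39.7 CPM in LOF-labelled and 36.5 and 23.1 CPM in control libraries of the second set, and 309 and 370.01 CPM in LOF-labelled and 214 and 244 CPM in control libraries of the first (-2.99). The anion exchanger of red cells, slc4a1a, which has no near-identical copy among these genes, had 289 to 331 CPM in the second set and 695 to 896 CPM in the first (-1.44). The globin genes share much of their sequence, and how their reads were assigned is uncertain. Alas2, the first enzyme of red cell heme synthesis, had 0 counts in every library, which may likewise come from the counting or the annotation and was not tested. Neutrophil genes differed less, with 3 of 9 lower (5 without control 2_1 or LOF-labelled 2_2) and 1 higher, against 14.2% lower and 13.1% higher among all genes. The 1 of 9 higher is near the share of all genes. The abundant granule enzyme mpx overlapped between the sets (-0.32). The higher member and 1 of the lower ones are both named mmp13a, at 1.08 (ENSDARG00000012395) and -1.05 (ENSDARG00000114451). How reads were assigned between them was not tested.

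**Figure D5:**
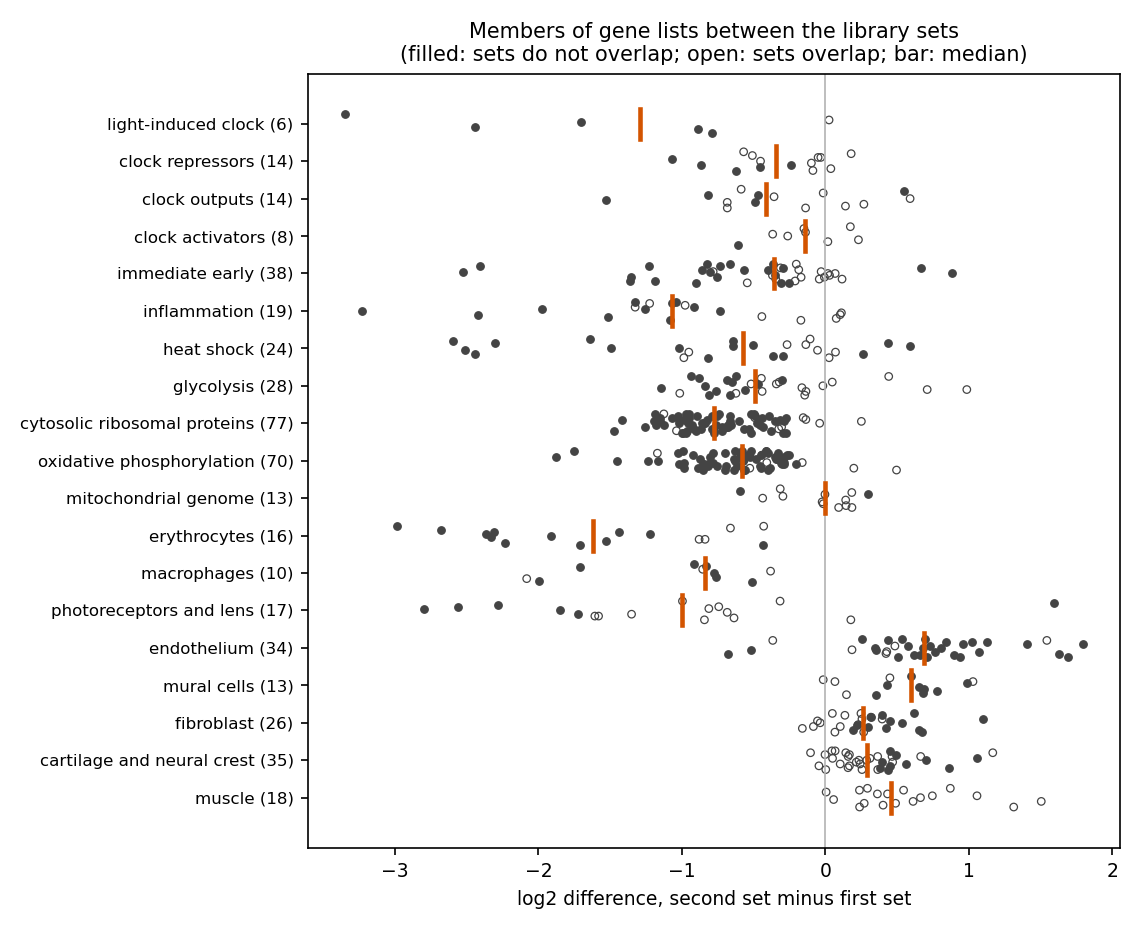
Log2 difference, second set minus first set, of each tested member of 19 gene lists, with the number tested in parentheses; filled points have sets that do not overlap, open points have sets that overlap, and bars are medians. Medians run from -1.62 for erythrocyte genes to 0.69 for endothelial genes.

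Genes of protein synthesis and respiration were lower in large numbers. Of 77 cytosolic ribosomal protein genes, 68 were lower and none higher, with a median of -0.77. At least 2-fold lower were 14 of them, against 2.17% of all genes. The small subunit gene rps20 had 436 and 388 CPM in LOF-labelled and 463 and 383 CPM in control libraries of the second set, and 930.1 and 1017 CPM in LOF-labelled and 887 and 994 CPM in control libraries of the first (-1.20). Of 70 nuclear genes of oxidative phosphorylation 62 were lower and none higher (median -0.58), and 7 were at least 2-fold lower, with the cytochrome oxidase subunit gene cox6b1 at -1.46. The 13 genes of the mitochondrial genome did not share this, with 1 lower (3 without LOF-labelled 1_1, and 2 without LOF-labelled 2_1, control 1_1 or control 1_2), 1 higher and a median of -0.003. In glycolysis 13 of 28 were lower and none higher (median -0.49), with the aldolase gene aldocb at -1.15 and lactate dehydrogenase (ldha) at -0.93.

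Many of these genes are short, and the class of shortest genes differed from the other classes in the set difference. With genes ranked into 5 classes by length, in the shortest class, with a median counted length of 1099 bases, 19.5% were lower and 7.97% higher in the second set, with a median difference of -0.077. In the longest class, with a median of 6272.5 bases, 11.4% were lower and 14.1% higher, with a median of 0.038. Over all classes but the shortest, medians ran from 0.016 to 0.038, with 11.4% to 13.7% lower and 12.9% to 15.7% higher. The ribosomal and respiratory genes are themselves counted in these classes. The part of gene length in the ribosomal and respiratory differences was not tested.

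Several genes not yet described were among the most different. Higher in the second set were the cell adhesion gene ncam3 (1.75), the kinase gene map4k2 (1.58), the carbonic anhydrase gene ca4a (1.54), the homeobox gene pitx3 (1.32), the prolyl hydroxylase gene p4ha1a (1.46), a member of the hypoxia list, the transketolase gene tkta (1.41), the small GTPase gene mras (1.36), the receptor gene gpr182 (1.34) and the Wnt modulator dact2 (1.31). Lower, beside the genes given above, was lgals3bpb, a secreted galectin-binding protein gene (-2.38). The genes whose log2 CPM followed per2 most closely over the 8 libraries included the helicase gene blm (Pearson r = 0.998), the cytokine signalling inhibitor socs3b, mycb, ppp1r18 and mcl1a, and those running opposite to it the lipid receptor gene s1pr5a (r = -0.998) and nktr. These correlations describe 2 clusters of 4 libraries that were chosen to stand apart, and the steepness of the relation differed widely. Blm had 23.0 to 23.5 CPM in the second set and 28.7 to 30.3 CPM in the first, a difference of -0.33.

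The remaining lists, like those above, are to be read against 13.1% higher and 14.2% lower among all genes. These shares hold for all 8 libraries. Counts with a library left out pass an easier rule, and no share of all genes is given for them. P53 response genes had 1 of 14 lower and 1 higher (median -0.06), and the count lower was 4 without control 2_1, 3 without control 1_1 and 2 without LOF-labelled 1_1, LOF-labelled 2_1 or control 2_2. Hypoxia response genes had 5 of 22 lower and 2 higher (median -0.06). Cholesterol synthesis genes had 1 of 16 higher (median -0.13), or 2 without LOF-labelled 2_1. Cell cycle genes had 13 of 38 lower and 1 higher (median -0.15), with the replication helicase subunit mcm7 at -0.43. The oxidative stress list had 7 of 19 lower and 1 higher, and the unfolded protein list 8 of 25 lower and 1 higher. Heparan sulfate metabolism, the pathway of the morpholino's target, had 9 of 34 higher and none lower (median 0.23), among them the extracellular sulfatases sulf1 (0.35) and sulf2a (0.92) and the sulfotransferase hs6st2 (0.32). Epidermal (1 of 9 higher), glial (1 of 8 higher, or 2 without control 2_2), neuronal (6 of 24 lower), liver (0 of 6), intestine (0 of 1), exocrine pancreas (1 of 5 lower) and pigment cell genes (0 of 6) are counted by non-overlapping members alone, and most of these lists have few tested members. Exocrine pancreas genes had a median of -1.22 over 5 members, with 5 lower without LOF-labelled 1_1. Liver genes had a median of -0.55 over 6 members, with 3 lower without LOF-labelled 1_2 and 1 without control 2_1 or control 1_1. The glucocorticoid list had 4 of 19 lower and none higher between the sets, or 7 lower without LOF-labelled 1_2 or control 1_1.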

How the data were processed

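The deposited values were raw read counts per gene for 32520 genes, made by the authors on genome build GRCz11, per the submitters' processing notes. Aligner, counter and strand setting: not given in the sources used here. Columns were matched to samples by their descriptions. The edgeR function filterByExpr left 15559 genes. Counts were scaled by trimmed means (TMM) and fitted with edgeR 4.0.16 (R 4.3.3, robust quasi-likelihood). Levels are CPM on the scaled library size, without gene length, so levels of different genes are not compared beyond list sums. Log2 CPM carries a prior count of 2. SDs are over the 4 libraries of a set and SEs come from the fit.

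The set difference has morpholino group as covariate and no test. LOF minus control was tested with a set term, and the group-by-set interaction in a model with both, adjusted over all 15559 genes and called at an adjusted p under 0.05. The residual spread of the interaction model lies between paired libraries of a biological replicate, and that of the group test also holds the group-by-set term. A set count needs all 4 libraries of a set above or below the other 4. With a library left out fewer libraries are compared, so the rule is easier to pass and counts tend to rise.

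The sets, the 37 gene lists (728 of 741 entries matched) and the tests were chosen with earlier results of these data known. Genes were named by a rule, which began with per2, cry1a and cry5. Next came 12 per direction with a standard name, non-overlapping sets and a log2 difference of at least 1. The log2 level of these averaged at least 3. Then came up to 4 members per list, 5 called genes per direction and test, and the 8 most like or opposite per2. Clock list members could all be named. A gene that the rule names is not reported here. Other list members and the called heat shock genes were named after their values were seen. The alternatives were other scalings, filters and fits (DESeq2 1.42.0, limma 3.58.1), a replicate block, no set or group term, a fold limit of 1.5, a prior count of 0.5, sums per biological replicate, and each library left out. Counts per list under these were added after the data were seen. Deviations of same-numbered replicates of the groups correlated at -0.487, which restates the crossed split and is no separate check of pairing. The fit was also run on simulated counts of independent libraries with no set or replicate effect. That setting is simpler than these data, and no result here rests on it.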

Additional observations from a re-analysis of the deposited data

Results flagged for a closer look

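In 5 genes 1 library stood far from the other 3 of its morpholino group on the log2 scale, by Dixon's test for groups of 4 at the 95% limit. They were apoa1b, an apolipoprotein gene of liver and yolk, at 4.68 CPM in LOF-labelled 1_1, arntl1b at 9.15 CPM in control 2_1, roraa at 34.5 CPM in control 1_2, fbxl3b at 35.0 CPM in LOF-labelled 1_1 and nfil3-4 at 0.52 CPM in LOF-labelled 1_2. Both groups of every named gene were tested, and chance flags about 1 group in 20. That rate assumes 4 like values. In genes picked for non-overlapping sets each group is split between the sets, so the rate does not hold for them.

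Beside the cartilage genes, ckma and tnnt3a given above and tal1, LOF minus control differed between the sets, in the test of that difference, in 16 genes chosen by the naming rule or from the heat shock list. The values, second set minus first on the log2 scale, were 2.46 for hsp70.3, 2.71 for hsp70.2, 2.39 for hsp70l, 2.51 for hsp70.1, 2.50 for hsp90aa1.1 and 1.66 for dnajb1b among heat shock genes. Photoreceptor genes followed with 1.70 for rho and 8.10 for opn1sw1. The fin fold gene and2 had 1.46 and the smooth muscle gene acta2 0.656. Negative values were -1.73 for the integrin gene itga2b, -1.31 for blvrb, -0.953 for tsc22d3, -1.28 for birc2, -1.17 for mrc1b and -1.02 for mmp13a (ENSDARG00000012395, 1 of 2 genes of that name). The actinodin gene and2 had 658 and 660 CPM in LOF-labelled and 362 and 344 CPM in control libraries of the second set, and 340.3 and 373 CPM in LOF-labelled and 542 and 509 CPM in control libraries of the first. The call of acta2 was lost without LOF-labelled 1_1, 2_1 or 2_2 or control 2_1 or 2_2, and that of mmp13a without LOF-labelled 1_2, 2_1 or 2_2 or control 2_1 or 1_1, with edgeR adjusted p of 0.0713 to 0.19. Each value also separates replicate number 1 from 2, and the 2 readings cannot be told apart.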

How the results depend on the processing

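The 514 genes at least 2-fold apart between the sets became 843 without a low-count filter, 1654 at a fold limit of 1.5 and 1022 with counts summed per biological replicate, where 17445 genes were tested and 2 values faced 2, and 250 with at least 50 counts in 4 libraries. Leaving out 1 library gave 558 to 703, under a rule that fewer libraries pass more easily. The 122 interaction calls became 290 without a filter and 48 to 135 with 1 library left out. The 396 group calls became 753 without a filter, 14 without the set term, 88 with counts summed per biological replicate and 188 to 615 with 1 library left out. A replicate block gave 510 set genes and 640 group calls, all but 1 of the 396 among them. In this design that block is the same as the group-by-set term. It leaves only the spread between paired libraries of a biological replicate. The 640 calls are therefore no check across biological replicates. Deviations of same-numbered replicates correlated at -0.487 and of crossed numbers at 0.487. With 2 replicates per group these are the same value with its sign turned. The sets were chosen as the crossed split, so neither value tests how replicates pair.

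No named gene changed sign where its sets did not overlap. Set differences of foxo3b (-0.178) and csnk1db (0.036) moved with library totals, which shift the median of all genes to 0.080. Library totals left 5 unfolded protein genes lower in place of 8. Depth limits genes below about 3 CPM, such as cxcl8a in the second set, to few counts per library.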
